A study of Rattus norvegicus with 20 samples.

Results

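Genes whose products defend wet body surfaces were followed in the lungs of rats that had inhaled silica dust. The set held 10 named genes: Rnase9, Prss30 (TMPRSS8 on the array), Slpi, Pigr, Lyz, Reg3g, Wfdc2, Scgb1a1, Scgb3a1 and Cldn10. They were taken by symbol, after a trailing _PREDICTED or _MAPPED was dropped, and were chosen by their silica and air values in this comparison, known from earlier results. Of the 10 genes, 9 had a row among the 21792 genes of the intensity table, and 8 were among the 10488 genes tested. Lyz was not analysed here. Most of the products are secreted, but Pigr codes for a membrane receptor and Cldn10 for a tight junction protein, so the genes are called by name below.

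Lung RNA of 20 male CDF Fisher 344 rats, an inbred laboratory strain, was measured at 3 months of age on Illumina bead arrays, 1 array per rat. On each of 5 days 8 rats, numbered 81 to 88, spent 6 h in crystalline silica, a mineral dust, at 15 mg/m3. The 12 control rats spent the same 5 sessions of 6 h in plain air, per the labels' shared protocol, and all lungs were collected 16 h after exposure ended. Control rats were numbered 89 to 92, 105 to 108 and 137 to 140, which makes 3 runs of 4. The labels do not say what a run stands for, and the first run follows directly on the silica rats' numbers. Whole lung was used, so a lower level from fewer cells of a type and one from less RNA per cell cannot be told apart. Between 9434 and 10840 genes were detected per array, and arrays correlated across genes at 0.978 to 0.996, where genes are not independent replicates. The lung markers Sftpc, Sftpb, Ager and Aqp5 were detected on all 20 arrays.

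The airway lining is kept by secretory cells, which release small proteins into the surface fluid, and by ciliated cells, which move that fluid out of the lung. Its defence has several arms: antibodies carried through the epithelium by a receptor, inhibitors that hold the proteases of neutrophils in check, proteins that act on microbes, and junctions that seal the sheet of cells. Secretoglobins are the most abundant secreted products of airway club cells and related secretory cells.

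Promoter windows are shown for Rnase9, Prss30, Pigr and Cldn10, which were higher in silica lungs, and for the secretoglobins Scgb1a1 and Scgb3a1, which had the smallest and the largest spread between air rats of the 8 genes tested. Each holds 250 bases before and 50 after a start site on the rat assembly GRCr8, 5′ to 3′ on the gene's own strand. For Rnase9, Cldn10, Scgb1a1 and Scgb3a1 this site is the start of the RefSeq gene. For Prss30 and Pigr it lies inside the RefSeq gene, which spans chr10:13511916-13519968 and chr13:44851001-44879143. The same holds for Wfdc2, whose window is not shown. Windows were found for 8 of the 9 genes measured, all but Slpi. Capitals mark matches, on either strand, to 5 motifs: NF-kB, STAT (TTCNNNGAA), C/EBP (TTNNGNAA), FOX (TGTTTNC) and the TATA box (TATAAA). The windows lie at chr15:26736556-26736855 (minus strand) for Rnase9, chr10:13515556-13515855 (minus) for Prss30, chr13:44850932-44851231 (plus) for Pigr and chr15:102269608-102269907 (plus) for Cldn10. Those of Scgb1a1 and Scgb3a1 lie at chr1:215409637-215409936 (minus) and chr10:34468916-34469215 (plus).
Rnase9: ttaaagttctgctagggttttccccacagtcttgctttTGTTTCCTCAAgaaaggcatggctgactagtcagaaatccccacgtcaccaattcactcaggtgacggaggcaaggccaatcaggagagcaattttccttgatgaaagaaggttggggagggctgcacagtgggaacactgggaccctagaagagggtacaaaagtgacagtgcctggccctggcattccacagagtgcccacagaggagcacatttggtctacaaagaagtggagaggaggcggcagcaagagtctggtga
Prss30: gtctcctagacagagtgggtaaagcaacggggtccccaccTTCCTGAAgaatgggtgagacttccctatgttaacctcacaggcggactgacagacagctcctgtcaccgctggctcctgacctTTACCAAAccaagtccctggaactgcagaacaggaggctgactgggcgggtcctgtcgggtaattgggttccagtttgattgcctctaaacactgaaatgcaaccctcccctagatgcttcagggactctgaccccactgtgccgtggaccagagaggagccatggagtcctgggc
Pigr: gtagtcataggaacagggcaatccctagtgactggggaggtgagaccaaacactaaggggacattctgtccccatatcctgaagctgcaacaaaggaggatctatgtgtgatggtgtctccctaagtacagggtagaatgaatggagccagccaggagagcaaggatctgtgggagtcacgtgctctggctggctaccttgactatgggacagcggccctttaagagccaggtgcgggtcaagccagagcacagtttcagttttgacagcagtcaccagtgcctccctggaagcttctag
Cldn10: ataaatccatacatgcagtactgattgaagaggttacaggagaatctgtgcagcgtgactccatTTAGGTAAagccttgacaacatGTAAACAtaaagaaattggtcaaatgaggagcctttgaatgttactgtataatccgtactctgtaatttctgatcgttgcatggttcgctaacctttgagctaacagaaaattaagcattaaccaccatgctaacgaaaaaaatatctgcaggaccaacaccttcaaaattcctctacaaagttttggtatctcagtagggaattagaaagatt
Scgb1a1: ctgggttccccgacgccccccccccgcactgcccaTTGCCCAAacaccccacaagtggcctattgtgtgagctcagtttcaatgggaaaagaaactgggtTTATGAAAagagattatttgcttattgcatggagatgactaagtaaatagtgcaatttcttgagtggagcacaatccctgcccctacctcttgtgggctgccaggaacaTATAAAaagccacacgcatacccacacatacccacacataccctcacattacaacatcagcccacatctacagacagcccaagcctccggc
Scgb3a1: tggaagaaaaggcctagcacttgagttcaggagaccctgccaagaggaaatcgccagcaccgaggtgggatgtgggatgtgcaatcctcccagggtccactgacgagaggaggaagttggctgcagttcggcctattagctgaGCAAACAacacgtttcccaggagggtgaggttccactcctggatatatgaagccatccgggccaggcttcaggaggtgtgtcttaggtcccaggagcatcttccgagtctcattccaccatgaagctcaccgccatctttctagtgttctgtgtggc

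A C/EBP match was found in 5 of the 8 windows (Rnase9, Prss30, Cldn10, Scgb1a1 and Wfdc2) and in 41.3% of all 33469 rat windows. A FOX match was found in 3 (Rnase9, Cldn10 and Scgb3a1), against 21.1% of all windows. In Rnase9 the FOX and C/EBP matches overlap and form a single run of capitals. TATA box matches were found in Scgb1a1 and Reg3g (14.2% of all windows), and an NF-kB match in Reg3g alone (7.51%). None of the 8 windows held the STAT motif, which 8.87% of all windows did, and the Pigr window held no match to any of the 5. A match is only a run of letters, and nothing about binding follows from it.

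Values below are log2 intensities after background correction and quantile normalization, with an offset of 16 intensity units that draws dim genes together. A gene counted as detected on an array where its detection p was under 0.01. Silica and air were compared gene by gene with limma over all 10488 genes at an adjusted p under 0.05. This comparison was used to choose the genes, so their differences are given as a description with no test. Of the 8 genes tested, 5 passed that threshold, all higher in silica: Rnase9, Prss30, Cldn10, Pigr and Slpi. Over all genes, 24.5% passed, 11.7% higher and 12.7% lower in silica. The median difference was 0.65 over the 8 genes and −0.02 over all genes tested. Because the genes were chosen on this contrast, the count and the median reflect that choice. Prss30, detected on 2 of 12 air arrays, was among the 8 genes only through its silica arrays.

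**Figure D1:**
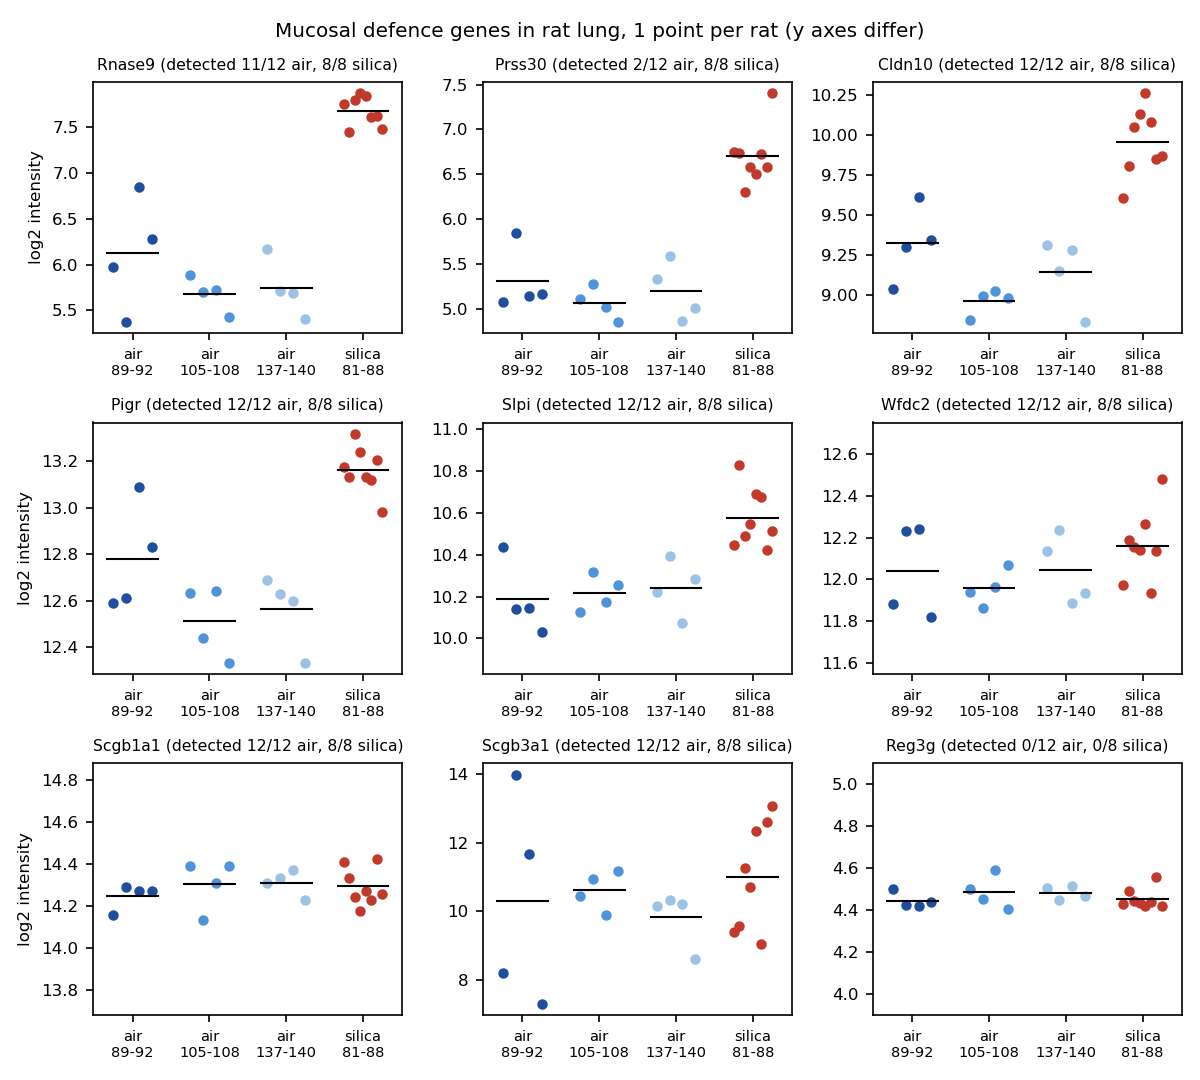
Log2 intensity (y axis) of the 9 genes measured, 1 point per rat, with air rats split by run of identifiers and silica rats in red; lines are means. All 8 silica rats lie above all 12 air rats for Rnase9 and Prss30, which held for 1.83% of all genes tested. For Cldn10, Pigr and Slpi 7 of 8 do, a count whose share over all genes was not computed. Scgb3a1 spreads from 7.33 to 13.96 among air rats.

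Pigr (PIGR on the array) codes for the polymeric immunoglobulin receptor, which carries dimeric IgA across epithelial cells and releases it on the outer surface. Its values ran from 12.34 through a median of 12.62 to 13.09 on the 12 air arrays. On the 8 silica arrays they ran from 12.98 through 13.16 to 13.32. The groups overlapped through air rat 91, the highest control, and silica rat 88, the lowest exposed animal. Of the silica rats, 7 of 8 exceeded every air rat. The share of all genes with 7 of 8 above was not computed. The mean was 0.54 ± 0.07 (SE, n = 8 and 12) higher in silica, or 1.46-fold. Against single control runs it was 0.38 to 0.65.

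Slpi (SLPI on the array) codes for the secretory leukocyte protease inhibitor, which blocks neutrophil elastase. Its log2 intensity lay between 10.03 and 10.44 (median 10.20) in air rats and between 10.42 and 10.83 (median 10.53) in silica rats. The ranges overlapped through air rat 89 and silica rat 87, with 7 of 8 silica rats above every air rat. The difference was 0.36 ± 0.06 (SE), or 1.28-fold, and it was 0.33 to 0.39 against each control run alone. Air rat 91, highest for Pigr, had a Slpi value of 10.14, below the air median.

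Wfdc2 (WFDC2 on the array), a secreted protein with WAP domains as Slpi has, overlapped between the groups. Air rats had 11.82 to 12.24 (median 11.95) and silica rats 11.94 to 12.48 (median 12.15), and 2 of 8 silica rats lay above every air rat. The mean difference was 0.14 ± 0.07 (SE), about the size of the SD of 0.16 among air rats. Against single control runs it was 0.11 to 0.20.

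Rnase9 (RNASE9 on the array) belongs to the ribonuclease A family and is known in the mouse mainly from the epididymis. Detection calls covered 8 of 8 silica arrays and 11 of 12 air arrays. Air rats had 5.38 to 6.85 (median 5.72) and silica rats 7.44 to 7.87 (median 7.68). The groups did not overlap, which held in that direction for 1.83% of all genes tested. The difference was 1.83 ± 0.14 (SE), or 3.55-fold, and 0.0572% of genes tested had a larger one in either direction. Raw intensities were low, 74.9 to 150 in air and 203 to 268 in silica rats, and the size depended on the background correction. It was 1.37 with an offset of 50, 1.30 without background correction, 0.96 in the authors' deposited log2 values and 0.51 with limma's default call.

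The spread of Rnase9 was wider in air rats. Its SD was 0.42 among them, larger than that of all but 1.75% of genes tested, and 0.16 among silica rats. Air rat 91 was highest at 6.85 and air rat 92 next at 6.28, while air rat 90 of the same run was lowest at 5.38.

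Prss30 codes for a serine protease described in the mouse intestine. Detection calls covered 8 of 8 silica arrays but 2 of 12 air arrays. On the other air arrays its detection p was 0.0133 to 0.113, which missed the threshold. Air rats had 4.86 to 5.84 (median 5.13) and silica rats 6.30 to 7.41 (median 6.66), again with no overlap (1.83% of all genes tested). The fitted difference was 1.51 ± 0.13 (SE). Most air values missed the detection threshold, so it is no measured fold. Raw intensities ran from 60.1 to 98.0 in air and from 119 to 195 in silica rats. The fitted difference was 0.97 with an offset of 50, 0.92 without background correction, 0.59 in the authors' deposited log2 values and 0.23 with limma's default call. Silica rat 88 stood at 7.41, the other silica rats between 6.30 and 6.75.

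Cldn10 (CLDN10 with the suffix _PREDICTED on the array) codes for a claudin that forms ion-selective pores in tight junctions and is used in the mouse as a club cell marker. Its log2 intensity was 8.84 to 9.61 (median 9.10) in air rats and 9.61 to 10.26 (median 9.96) in silica rats. The highest air rat, 91, and the lowest silica rat, 81, had the same value to 2 decimals, and 7 of 8 silica rats exceeded every air rat. The difference was 0.81 ± 0.09 (SE), or 1.76-fold. It was 0.63 ± 0.11 against rats 89 to 92 alone and 0.99 ± 0.10 against rats 105 to 108 alone.

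Scgb1a1 (SCGB1A1 on the array), the main secreted protein of club cells, had raw intensities of 14682 to 28368 in a table whose highest value was 33121. Air rats had 14.13 to 14.39 (median 14.30) and silica rats 14.18 to 14.42 (median 14.26). The ranges almost coincided. Quantile normalization gives equal ranks equal values, and air rats 91 and 92 and silica rat 85 all had 14.2717. How far this narrowed the spread was not tested. The difference was 0.0045 ± 0.040 (SE), with a 95% interval of −0.078 to 0.087, and its sign changed with the control run used. It was −0.025 to 0.045 over 13 alternatives, among them array medians made equal in place of quantile normalization. Among all genes tested, 97.6% had a larger difference.

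Scgb3a1 (SCGB3A1 on the array), a secretoglobin of secretory cells in the larger airways, varied most between rats. Air rats had 7.33 to 13.96 (median 10.28) and silica rats 9.06 to 13.07 (median 10.99), so the whole silica range lay inside the air range. The SD was 1.72 in air and 1.57 in silica rats, and 0.0381% of genes tested had a larger SD among air rats. The extremes came from the same run: air rat 90 had 13.96 and air rat 92 had 7.33, a raw intensity of 19083 against 189. The mean was 0.75 ± 0.66 (SE) higher in silica, with a 95% interval of −0.62 to 2.12. It was 0.38 to 1.17 against single control runs, 0.46 without silica rat 88 and 1.09 without air rat 90. The other 2 runs were narrower, with SDs of 0.56 and 0.82, against 3.08 in rats 89 to 92.

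Reg3g (REG3G on the array), a lectin that acts on Gram-positive bacteria in the mouse gut, was detected on 0 of 20 arrays and was not tested. Its raw intensities of 42.8 to 68.9 are background, so no level or fold is given.

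**Figure D2:**
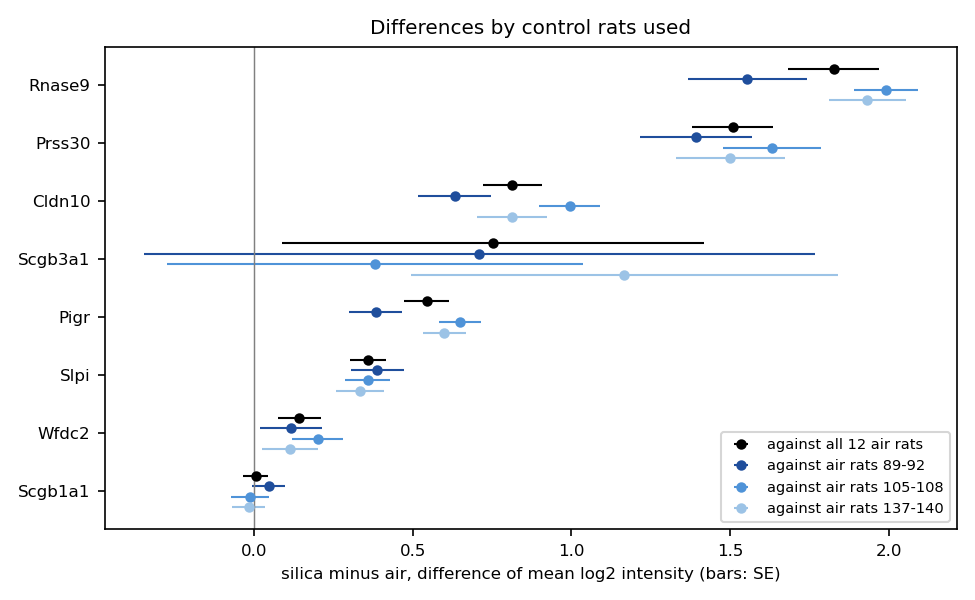
Silica minus air difference of mean log2 intensity (x axis) for the 8 genes tested, against all 12 air rats and against each run of 4 air rats; bars are SE. Rnase9 and Prss30 lie furthest right, Scgb1a1 sits at 0, and the bars of Scgb3a1 are the widest.

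Because the labels do not say whether the control runs are batches, silica was also set against each run alone, with the same 8 silica arrays each time. Over all genes the share passing higher in silica was 3.76% against rats 89 to 92, 8.73% against rats 105 to 108 and 10.8% against rats 137 to 140. For Rnase9, Prss30, Cldn10 and Pigr the fitted difference was smallest against rats 89 to 92, at 1.55, 1.39, 0.63 and 0.38. For Slpi and Scgb1a1 it was largest there, at 0.39 and 0.045. Wfdc2 had its smallest difference against rats 137 to 140 (0.11), and Scgb3a1 against rats 105 to 108 (0.38). A comparison not used in choosing the genes asked whether the 3 air runs differed from each other (limma's moderated F test). Prss30, detected on 2 of 12 air arrays, is left out of this result. None of the other 7 genes passed, with adjusted p from 0.35 for Cldn10 to 0.954 for Slpi, and 0.162% of all genes did. Without adjustment only Cldn10 had a p under 0.05, at 0.0258.

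Variation between rats of one group was not used in choosing the genes either, and was tested by permutation within each group. Among the 12 air rats, 2 of 21 pairs of genes passed an adjusted p under 0.05 over 49 pairs in both groups. The share of pairs of other genes that vary together as closely was not computed. Rnase9 rose with Pigr (Pearson r = 0.89, adjusted permutation p = 0.00931; Spearman rho = 0.78, adjusted p = 0.205). Pigr rose with Cldn10 (r = 0.81, adjusted permutation p = 0.0341; rho = 0.73, adjusted p = 0.235). Neither passed on ranks. Without the 2 rats farthest from the median the coefficients were 0.66 and 0.55, so both rest partly on those rats, air rat 91 among the high ones.

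Each run holds only 4 rats, too few for a coefficient of its own. With run means removed, r was 0.86 for Rnase9 and Pigr and 0.74 for Pigr and Cldn10. With array medians made equal in place of quantile normalization, both pairs missed the threshold (r = 0.74 and 0.82, adjusted permutation p = 0.0738 and 0.0608). Among the 8 silica rats none of 28 pairs passed. The closest was Prss30 with Pigr (r = −0.89, adjusted exact permutation p = 0.087; rho = −0.65), which was −0.34 without 2 rats, silica rat 88 having the highest Prss30 and the lowest Pigr. Slpi showed no called relation to any gene of the set in either group.

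**Figure D3:**
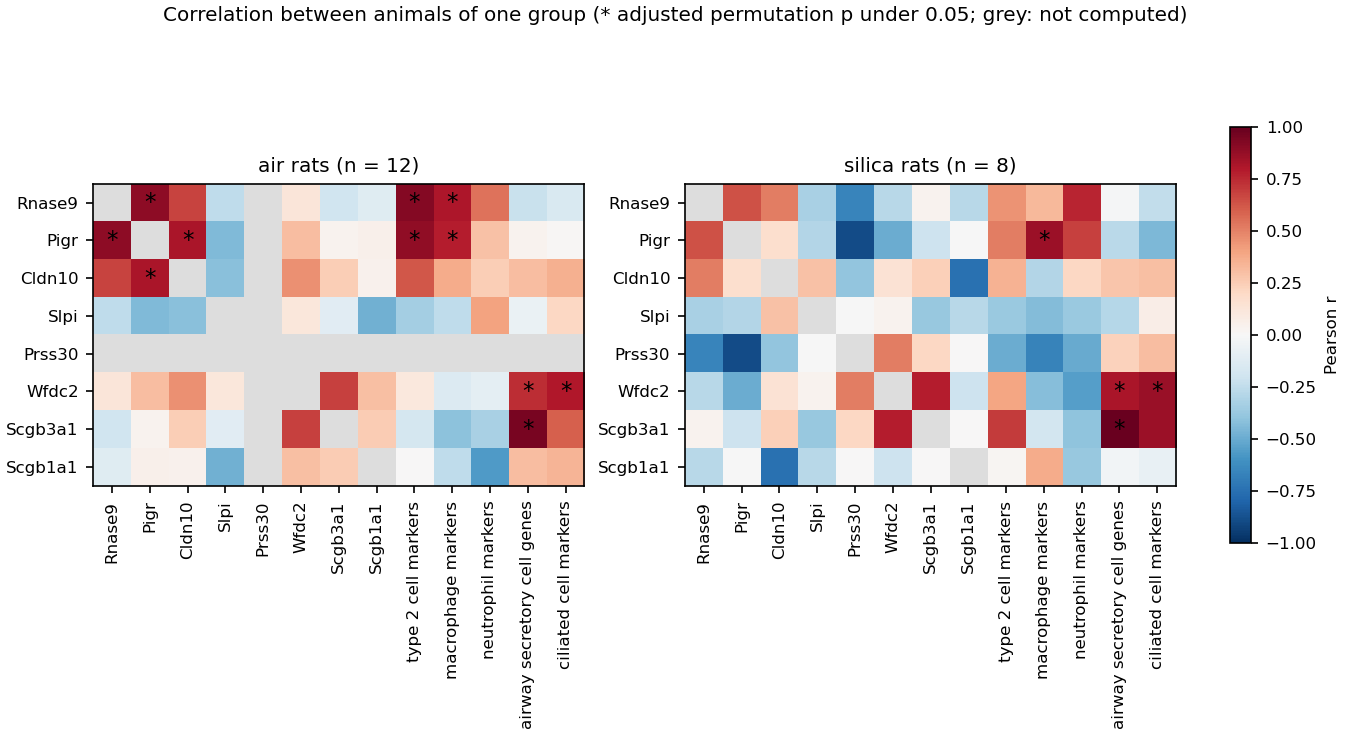
Pearson r between genes of the set and between each gene and the mean level of 5 marker lists, within the 12 air rats (left) and the 8 silica rats (right); stars mark an adjusted permutation p under 0.05 and grey cells were not computed. In air rats stars join Pigr to Rnase9 and to Cldn10, but not Rnase9 to Cldn10. Stars also join Rnase9 and Pigr to type 2 cell and macrophage markers there. In both groups Wfdc2 and Scgb3a1 have stars with airway secretory cell genes.

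Each gene was then set against the mean log2 intensity of 5 lists of cell markers, none of which contains a gene of the set, over 75 relations in both groups. In air rats 7 of 35 passed and in silica rats 4 of 40. Of these 11 relations 5 missed the threshold on ranks, as given below. The share of all genes tested that vary as closely with these lists was not computed, so no relation is called particular to these genes. Scgb3a1 rose with 14 airway secretory cell genes in air rats (r = 0.95, rho = 0.81, adjusted permutation p = 0.00075) and in silica rats (r = 0.99, rho = 0.98, adjusted exact permutation p = 0.00434). Without 2 rats these were 0.85 and 0.98. Rats with high Scgb3a1 had a high mean of this list in both groups. The genes of the list differed in spread, from an SD of 0.082 for Krt19 to 1.89 for Bpifa1 among air rats, so the mean does not stand for each gene.

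Wfdc2 rose with the same 14 genes (air r = 0.74, rho = 0.81, adjusted permutation p = 0.0287; silica r = 0.82, rho = 0.79, adjusted exact permutation p = 0.0359). It also rose with 12 ciliated cell markers (air r = 0.80, rho = 0.77, adjusted permutation p = 0.0258; silica r = 0.87, rho = 0.74, adjusted exact permutation p = 0.0359). On ranks the ciliated relation missed the threshold in both groups (adjusted p = 0.0541 in air and 0.229 in silica rats), and the secretory one did in silica rats (adjusted p = 0.17). Without 2 rats these 4 coefficients were 0.83, 0.65, 0.74 and 0.85. The 2 silica relations missed the threshold with array medians made equal (r = 0.62 and 0.76, adjusted exact permutation p = 0.284 and 0.127). Scgb1a1 had no called relation to either list.

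Rnase9 and Pigr varied with other markers. In air rats Rnase9 rose with 9 type 2 cell markers (r = 0.92, rho = 0.90, adjusted permutation p = 0.0015) and with 10 macrophage markers (r = 0.81, rho = 0.85, adjusted permutation p = 0.0184). Pigr did so too (type 2 cells r = 0.89, rho = 0.86, adjusted permutation p = 0.00562; macrophages r = 0.79, rho = 0.72, adjusted permutation p = 0.0258), but with macrophage markers not on ranks (adjusted p = 0.0917). Without 2 rats the coefficients were 0.84 and 0.62 for Rnase9 and 0.76 and 0.78 for Pigr. Run means removed, all 4 lay between 0.72 and 0.91.

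In silica rats, of these relations only that of Pigr with macrophage markers passed (r = 0.86, rho = 0.78, adjusted exact permutation p = 0.0457), and it was 0.54 without 2 rats. It missed the threshold on ranks (adjusted p = 0.17) and in the authors' deposited log2 values (r = 0.79, adjusted exact permutation p = 0.105). With array medians made equal, the relations of Rnase9 in air rats missed it too (r = 0.54 with type 2 cell markers, adjusted permutation p = 0.216; 0.69 with macrophage markers, adjusted permutation p = 0.0721).

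**Figure D4:**
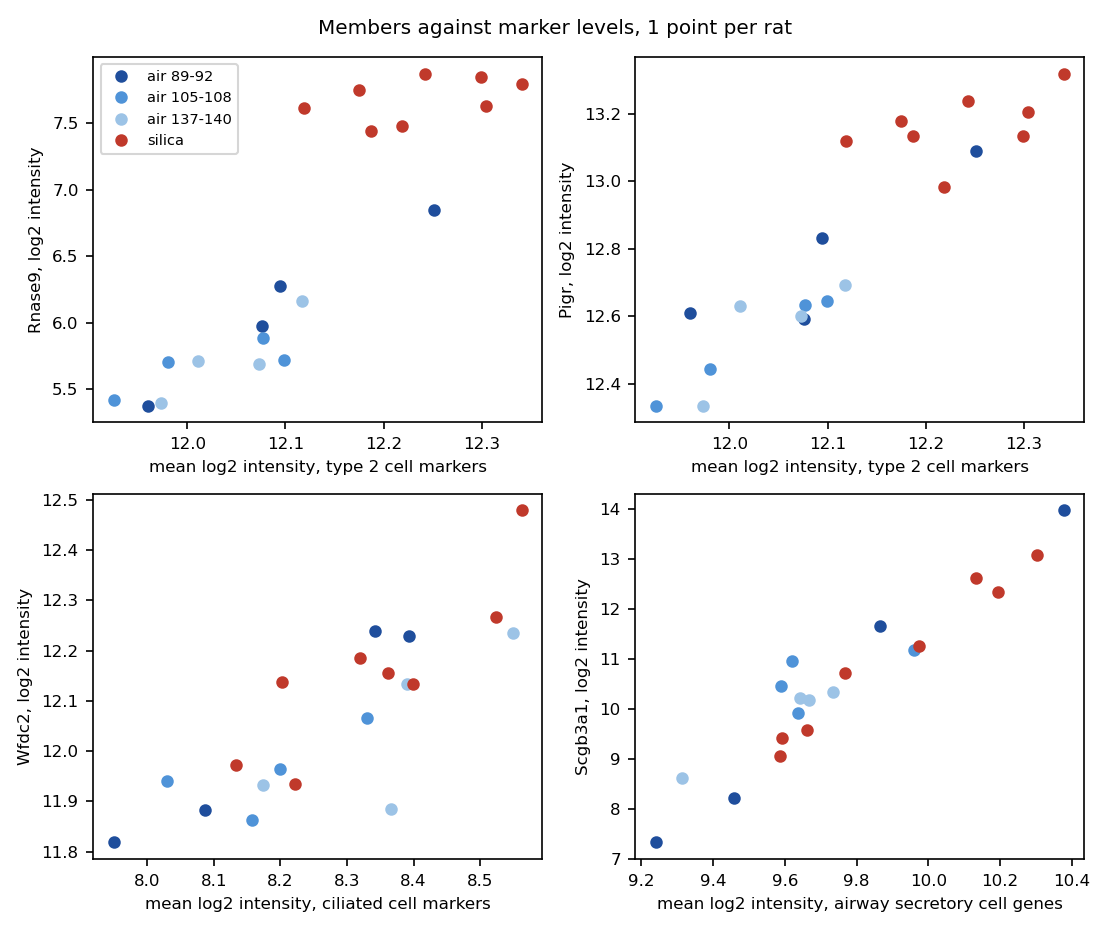
Log2 intensity of 4 genes (y axes) against the mean log2 intensity of a marker list (x axes), 1 point per rat. Scgb3a1 and the airway secretory cell genes rise together in air and silica rats alike. For Rnase9 all silica rats (7.44 to 7.87) lie above all air rats (5.38 to 6.85), as for 1.83% of all genes tested.

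For each gene detected on all 20 arrays, the gene of most similar pattern was sought over 20 deviations from group means, as a description. For Scgb3a1 it was Cyp2a3, a cytochrome P450 of the airway secretory list (r = 0.91). For Wfdc2 it was Pitx1, a homeobox factor (r = 0.92), and for Pigr it was Cd177, a neutrophil surface protein (r = 0.89, 0.93 in air and 0.57 in silica rats). Cldn10 was closest to Atp1b1, a sodium pump subunit (r = 0.79), Slpi to Idh3g, a mitochondrial dehydrogenase subunit (r = 0.74), and Scgb1a1 to Fbxo46 (r = 0.72). Each is the highest coefficient among all genes tested that are outside the set and carry a full name.

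The markers of several cell types differed between the groups as well, all in the fit over 20 arrays. Of 10 macrophage markers tested 8 rose and none fell (median difference 0.46), with the smallest p for Cd14, Cd68, C1qa and C1qb (0.65, 0.92, 0.43 and 0.53). Against rats 89 to 92 alone 5 rose. Their mean log2 intensity was 9.13 to 9.75 in air and 9.80 to 9.99 in silica rats, with Marco detected on no array. Of 9 neutrophil markers 6 rose and none fell (median 0.37), with Cd177 at 2.70, Il1r2 at 1.31, Trem1 at 0.59 and S100a8 at 0.37. Their mean was 6.72 to 7.10 in air and 7.33 to 7.72 in silica rats, while Mpo, Ltf, S100a9 and Fpr1 of the same list were detected on no array. Csf3r and Cxcr2, both among the 6 that rose, were detected on 2 and 6 of 12 air arrays and on 6 and 8 of 8 silica arrays. Both were tested only through their silica arrays, and the neutrophil count, median and mean include them. Both list means were higher in every silica rat than in any air rat, which held for 1.83% of single genes tested. No such share was computed for list means. The macrophage ranges were close, at 9.75 in the highest air rat and 9.80 in the lowest silica rat. The part of these markers in the differences of Rnase9, Prss30, Cldn10, Pigr and Slpi was not tested.

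The epithelial lists moved less. Of 9 type 2 cell markers 4 rose and none fell (median 0.12), namely Sftpd, Lamp3, Napsa and Abca3 (0.58, 0.34, 0.25 and 0.26), with list means of 11.93 to 12.25 in air and 12.12 to 12.34 in silica rats. The count was 2 with array medians made equal and 2, Lamp3 and Napsa, against rats 89 to 92 alone. Of 7 type 1 cell markers 2 fell, Ager and Aqp5 (−0.20 and −0.21), which was 0 with array medians made equal and 1, Ager, against rats 89 to 92 alone. Of 12 ciliated cell markers Tekt2 rose (0.26) and Tppp3 fell (−0.31), with overlapping means of 7.95 to 8.55 and 8.13 to 8.56. The number that rose was 0 with array medians made equal, 6 with array weights and up to 3 on leaving out 1 array. The ciliated marker Dnah5 was detected on no array. No gene passed among 4 plasma and liver protein genes (Alb 0.89, adjusted p = 0.229) or 4 squamous genes of the upper airway (Krt4 −0.19, adjusted p = 0.262). Without adjustment no gene of these 2 lists had a p under 0.05.

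Among 14 airway secretory cell genes 3 rose and 4 fell, with a median difference of 0.05. Hp, the haemoglobin-binding haptoglobin, rose by 1.03 ± 0.09 (SE, adjusted p = 2.77e-08), from 9.80 ± 0.26 (SD, n = 12) to 10.83 ± 0.16 (SD, n = 8) in limma's fit. Muc1, a membrane mucin, rose by 0.45 and Ces1d, a carboxylesterase, by 0.18, while Cyp4b1, a P450 of club cells, was lower by a difference of −0.30. Against rats 89 to 92 alone 1 rose and 2 fell, and without air rat 90 the number that rose was 5. The list mean overlapped, at 9.24 to 10.38 in air and 9.59 to 10.30 in silica rats, and Muc4, Tff2, Tff3 and Bpifb1 were detected on no array.

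Other antimicrobial proteins were mixed. Of 8 tested 3 rose and 1 fell, with a median difference of 0.17. Lcn2, which withholds iron from bacteria, rose by 2.48 ± 0.21 (SE, limma adjusted p = 1.14e-08). Defb4, a defensin, rose by 0.27, and S100a8, a subunit of calprotectin, by 0.37, while Pla2g2a, a secreted phospholipase, was lower by a difference of −0.43 and passed against neither rats 89 to 92 nor rats 105 to 108 alone. Bpifa1, an airway surface protein named here after its values were seen, resembled Scgb3a1 in its spread (SD 1.89 in air and 1.36 in silica rats; difference 1.67 ± 0.68 SE, limma adjusted p = 0.0763). Reg3a was detected on no array, as Reg3g was.

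Of 6 genes tested in the ribonuclease A list, the ribonuclease inhibitor Rnh1 among them, 0 rose and 1 fell. The gene that fell was Rnase3 (EAR11 on the array, −0.31 ± 0.08 SE, limma adjusted p = 0.00613), and the list median was −0.15. Over all genes 11.7% rose and 12.7% fell, so counts of 0 and 1 in 6 lie near these shares. Rnase10 and Rnase12 were detected on no array. Against rats 89 to 92 alone Rnase3 did not pass (limma adjusted p = 0.158), and Ang, named after its values were seen, was the 1 gene that fell (−0.26, adjusted p = 0.0452). EAR11 was matched to Rnase3 only as a RefSeq synonym, and near-identical genes of this family may share a probe.

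Among 9 protease inhibitors tested, 3 rose and 1 fell (median 0.02). Serpinb1a, an inhibitor of neutrophil elastase like Slpi, rose by 0.56 ± 0.06 (SE, limma adjusted p = 1.54e-07). Cstb, an inhibitor of cathepsins, and Spint1, an inhibitor of membrane serine proteases, rose by 0.24 and 0.20, and Wfdc1 fell (−0.14). Serpinb1a and Cstb act inside cells and Spint1 is anchored in the membrane. With array medians made equal, or against rats 89 to 92 alone, 1 rose and none fell, and the call of Wfdc1 was lost on leaving out any of 12 of the 20 arrays. Among 6 epithelial and membrane serine proteases 2 rose and 1 fell (median 0.04). They were St14, or matriptase (0.29), Hpn, or hepsin (0.30), and Prss23 (−0.19); against rats 89 to 92 alone only St14 passed. Tmprss6, Tmprss11d, Tmprss11e, Tmprss13 and Prss22 were detected on no array.

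Around Pigr, 1 of 5 genes of IgA transport and plasma cells rose: Tnfsf13, a survival factor for plasma cells (0.54 ± 0.07 SE, limma adjusted p = 1.03e-05). Jchain, the chain that Pigr binds in dimeric IgA and named after its values were seen, had a difference of 0.06 ± 0.09 (SE, limma adjusted p = 0.672). Around Cldn10, Cldn3 rose (0.32) and Cldn5, a claudin of endothelium, fell (−0.15) among 6 claudins (median −0.03). With array medians made equal neither passed, against rats 137 to 140 alone neither did, and Cldn5 passed against no run alone and was lost on leaving out any of 8 of the 20 arrays. Of 15 cytokines, receptors and factors known to induce mucosal defence genes, 3 rose and 1 fell (median −0.01): Il1a and Il1b (0.44 each), Osmr, the oncostatin M receptor (0.40), and Il17re (−0.16). None of these 4 passed against rats 89 to 92 alone, and no gene of the list fell on leaving out any of 8 of the 20 arrays. Of this list 8 genes were detected on no array: the ligands Il6, Il22, Il13, Il4, Tnf and Il17b, and the receptors Il6st and Il22ra1.

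**Figure D5:**
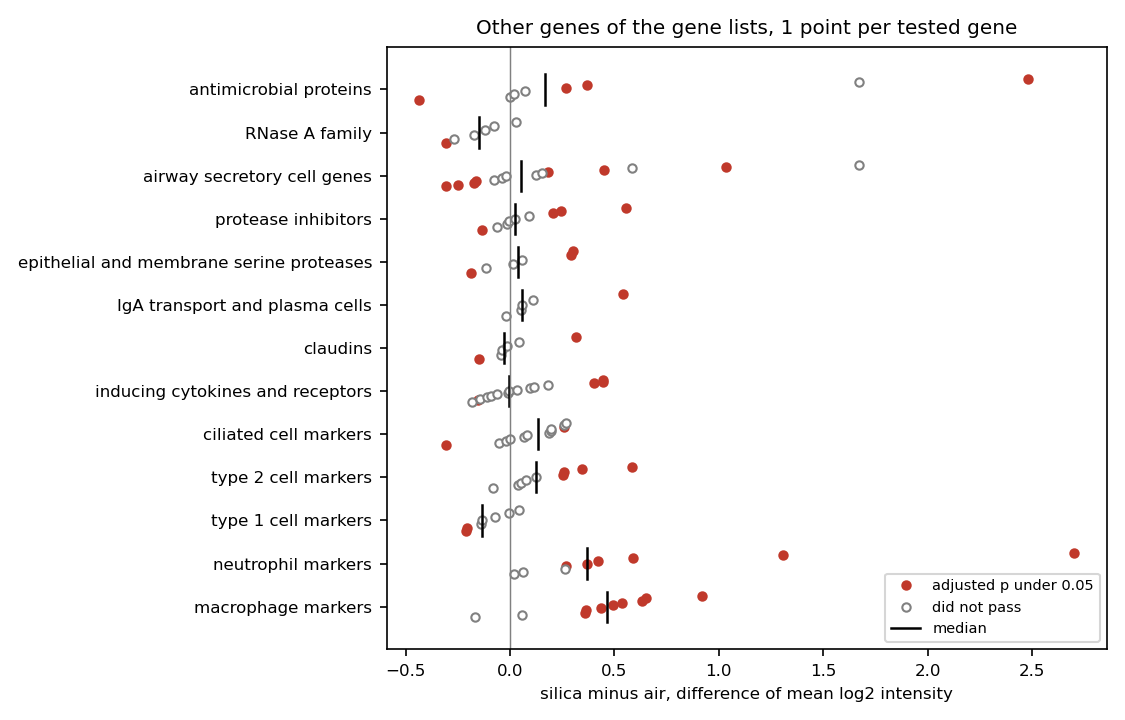
Silica minus air difference of mean log2 intensity (x axis) of the other genes tested, by list, 1 point per gene; red points passed an adjusted p under 0.05, open points did not, and bars are list medians. The neutrophil and macrophage lists have medians of 0.37 and 0.46, and the other lists plotted lie between −0.15 and 0.17; the plasma and liver protein genes and the squamous genes are not plotted.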

How the data were processed

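Lung RNA of 8 silica and 12 air rats was hybridised to Illumina rat arrays, 1 per rat, from 375 ng of RNA each. The submitters' processing notes name BeadStudio, lumi and limma without their roles. The mean bead intensities deposited by the authors are neither background-subtracted nor normalized, judging from their values. Detection p-values and bead numbers (27 to 60 beads for the genes described), deposited by the authors, stand beside them. A second deposited table gives log2 values that the authors had scaled to near equal array medians (7.786 to 7.813), and its exact transformation is unknown. A further 20 columns of per-sample values, bead standard errors, were not used.

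Background was corrected in limma 3.58.1 (R 4.3.3) with normexp and an offset of 16. The control mean and SD were inferred from detection p-values, leaving out 683 rows that average several probes. The corrected intensities were then quantile-normalized and put on the log2 scale. Tests covered genes detected (p under 0.01) on 8 arrays or more and used lmFit and eBayes (intensity trend, 2-sided, Benjamini-Hochberg). The 3 runs of air identifiers were compared with the moderated F test, and both fits were tested on simulated data. Correlations within groups used Python 3.11.15 and NumPy 2.4.6, with 100000 resamples for 12 rats and all 40320 orders for 8, 2-sided, Benjamini-Hochberg adjusted over 49 pairs of genes and, separately, 75 gene and list pairs. Prss30 was left out of those in air rats, and none used Reg3g. The number of arrays limits the precision.

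Old symbols were updated through RefSeq's GRCr8 gene table, used only for names and for the gene spans set beside the promoter windows. Of the names, 9918 matched a symbol, 4817 a synonym, 1586 a gene identifier, and 5471 were kept. No build for the array's probes is given in the sources used here. The genes and lists were chosen with earlier results of these data known. Named are all 9 genes, up to 4 passing genes of smallest p in each list (or the gene of smallest p) and the most alike gene. Other genes named are those detected on no array, lung markers, Jchain, Bpifa1, Ang, Krt19, Csf3r and Cxcr2. No BeadChip or scan is named, so array batches were not tested. Replicate numbers did not pair the samples: of 8 same-numbered pairs 1 had a correlation of deviations over 0.1. Alternatives to the background correction, scaling, filter, model, controls and samples were run.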

Additional observations from a re-analysis of the deposited data

Results flagged for a closer look

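In silica rat 88 the log2 intensity of Prss30 was 7.41, and the nearest other silica rat had 6.75, a gap of 0.591 of the group's whole range. The same animal had the lowest Pigr value of the silica group. Without it the silica minus air difference of Prss30 was 1.41, against 1.51 with it.

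In silica rat 87 Cd14, a macrophage marker, stood at 10.47, and the nearest other silica rat at 10.20, a gap of 0.629 of the range. Each value lay further from the rest than the usual 95% limit for a group of 8, and 53 groups were looked at, of which chance alone marks about 1 in 20.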

How the results depend on the processing

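Of 10488 genes, 2565 passed between silica and air. The count was 1388 with array medians made equal, 649 against rats 89 to 92 alone and 1537 with the replicate block, whose numbers do not pair the samples (same-numbered pairs correlated at −0.228 to 0.163, and 0 silica arrays correlated best with their own number). Leaving out 1 array gave 2182 (without silica replicate 3) to 2758 (without air replicate 3). The share of calls higher in silica was 48.0%, and 60.7% against rats 89 to 92 alone. Between the 3 air runs 17 genes passed, 10 with limma's default call, 41 with array medians made equal and 11 without the detection filter. No cause of these shifts was tested. The differences of Rnase9 and Prss30 moved under the 4 background settings given above; those of the other 6 genes moved by less than their SD between rats under every alternative run. Of 390 counts of genes up or down in a list under other settings 56 moved by over 1.5 times, and 43 of 600 on leaving out an array. Of 65 correlations recomputed, 7 missed the threshold, 6 of them with array medians made equal. Dim signal limits Prss30, Rnase9 and Reg3g most.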
